A study of Mus musculus with 12 samples.

Results

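The Scube genes encode a small family of secreted proteins of the hair follicle and other tissues, and all 3 mouse members, Scube1, Scube2 and Scube3, were followed here in dermal papilla cells with and without an active form of Smo. They are the members of the family by name and are 3 of the 25887 genes in the deposited tables. Scube1 is ENSMUSG00000016763, Scube2 is ENSMUSG00000007279 and Scube3 is ENSMUSG00000038677. All 3 passed the filter on low values, a mean of at least 10 normalized counts, at both ages.

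SCUBE proteins take their name from a signal peptide, a CUB domain and repeats like those of epidermal growth factor, and they are secreted or held at the cell surface. Hedgehog ligands leave the sending cell with lipid anchors, and in vertebrate cells Dispatched hands the ligand to a SCUBE protein, which keeps it soluble, so the family sits on the release side of the pathway. SCUBE proteins also act outside Hedgehog: Scube3 binds receptors of TGF-beta, Scube2 assists the VEGF receptor Kdr in endothelial cells, and in mouse skin Scube3 is known as a signal that papilla cells secrete to promote hair growth. In the follicle the Hedgehog ligand Shh is made by epithelial cells and is received by the papilla, the cluster of mesenchymal cells at the follicle base, through the receptor Ptch1 and the signal transducer Smo.

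RNA was sequenced from dermal papilla cells sorted by FACS, in 4 groups of 3 libraries. The P28 Smo* libraries were from male mutants labelled anagen I-III, the early growth stages, and the P28 WT libraries from male wild types labelled anagen VI, the full growth stage, so genotype and stage differ together at P28. The P20 Smo* and P20 WT libraries were from females, mutant and wild type, all labelled telogen, the resting stage. Smo* is a gain-of-function form of Smo stated to be specific to the papilla. The promoter that drives it, the sorting markers and the strain are not stated in the labels or the series text. No label ties a library to an animal of its own, and p-values therefore measure a spread between samples that may be technical. P28 and P20 differ in age, stage and sex at once, and these cannot be told apart.

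By the GENCODE M21 annotation of GRCm38, Scube1 lies on chr15:83604999-83725021 on the minus strand and has 7 transcripts, 4 of them coding, with 9829 bases of exon. Scube2 lies on chr7:109798676-109865679 on the minus strand and has 5 transcripts, 3 of them coding, with 4153 bases of exon. Scube3 lies on chr17:28142141-28174854 on the plus strand and has 7 transcripts, 4 of them coding, with 8844 bases of exon. The genes lie on 3 different chromosomes. A long noncoding RNA on the minus strand, AC126937.2 at chr17:28174657-28177682, overlaps the 3′ end of Scube3 and was not analysed here. The labels do not say if reads were counted by strand, and reads from that stretch cannot be assigned to one of the 2 genes.

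The promoters are shown because Scube1 and Scube3 were both far higher in P28 WT papillae than at P20 while Scube2 was not. RefSeq promoter windows of GRCm38.p6 (250 bases before to 50 after the start) matched all 3 genes, and only the bases before every annotated start are printed: chr15:83725052-83725289 on the minus strand for Scube1, chr7:109865680-109865929 on the minus strand for Scube2 and chr17:28142059-28142099 on the plus strand for Scube3. Capitals mark GC boxes (GGGCGG or its complement CCGCCC) and CCAAT boxes in Scube1 and Scube2, and in Scube3 the longest run without a pyrimidine.
Scube1: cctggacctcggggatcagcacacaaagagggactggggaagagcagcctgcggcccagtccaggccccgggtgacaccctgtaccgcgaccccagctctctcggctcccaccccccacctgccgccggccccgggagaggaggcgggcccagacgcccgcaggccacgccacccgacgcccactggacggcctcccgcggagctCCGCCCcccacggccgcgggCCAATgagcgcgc
Scube2: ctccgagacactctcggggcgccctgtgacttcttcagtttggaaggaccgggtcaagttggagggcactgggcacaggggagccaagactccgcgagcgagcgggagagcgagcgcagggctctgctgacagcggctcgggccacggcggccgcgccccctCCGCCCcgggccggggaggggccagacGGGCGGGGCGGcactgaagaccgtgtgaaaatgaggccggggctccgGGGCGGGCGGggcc
Scube3: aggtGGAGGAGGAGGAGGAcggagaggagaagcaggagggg

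The 3 windows of 300 bases differ in base composition and share few of the letters searched. Only 41 bases of the Scube3 window lie before every annotated start of its gene, against 238 in Scube1 and 250 in Scube2. The rest of each window lies inside the annotated gene, so the windows set unlike stretches side by side. The window was 75.0% G or C in Scube1 and 75.3% in Scube2, above 96.1% and 96.4% of the 32851 promoters, while that of Scube3 was 62.0%, above 75.3% of them, where the median promoter had 52.7%. Purines made up 71.0% of the Scube3 window, against 49.3% in Scube1 and 57.7% in Scube2, and the run in capitals is 15 bases long. On both strands, the GC box was found once in Scube1, 5 times in Scube2, where 4 of them form 2 pairs that share letters, and in none of the Scube3 window, and 35.7% of all promoters hold it. The CCAAT box was found once in Scube1 only, and 37.4% of promoters hold it. No window held the GLI site GACCACCCA or its core ACCACCC, the TCF/LEF sites CTTTGAT or CTTTGAA, the TATA box TATAAA, the forkhead site TGTTTAC or the SMAD palindrome GTCTAGAC, which occur in 0.253%, 4.61%, 8.65%, 13.6%, 3.65% and 0.213% of promoters. These counts describe letters in a window of 300 bases and say nothing of the factors themselves.

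The libraries held 36323058 to 48926831 reads on genes. P28 Smo* replicate 3 had the fewest genes detected, 15453, against 17337 to 17926 in the other 11 libraries, and the lowest Spearman correlation with an own replicate was 0.959 in the P28 Smo* group, against at least 0.976 in the other groups. Gli1, the transcription factor that reads out Hedgehog activity, was at 4071 to 4435 normalized counts in P28 Smo* libraries, against 1396 to 1581 in P28 WT libraries, and at 3665 to 5324 in P20 Smo* libraries, against 1022 to 2245 in P20 WT libraries. Both genotype labels therefore stood apart in Gli1 at both ages. The 10 papilla markers were all detected in every group, with sums of 36956 to 279257 in P28 Smo*, 312908 to 372335 in P28 WT, 45608 to 62625 in P20 Smo* and 35483 to 41176 in P20 WT libraries. Sums for 5 fibroblast markers were 91582 to 140065 over all 12 libraries, and those for 6 keratinocyte markers were 42.0 to 827. In bulk samples, fewer cells of a type and less RNA per cell cannot be told apart.

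Scube3 and Scube1 were among the abundant transcripts of the growing papilla, and Scube2 was a minor one in all groups. Per kilobase of exon, Scube3 averaged 2314 ± 1546 normalized counts in P28 Smo*, 7803 ± 1254 in P28 WT, 498 ± 209 in P20 Smo* and 125 ± 20.3 in P20 WT libraries (SD, n = 3 each). Scube1 averaged 454 ± 344 per kilobase in P28 Smo*, 3326 ± 679 in P28 WT, 85.3 ± 20.8 in P20 Smo* and 179.7 ± 43.2 in P20 WT libraries. Scube2 averaged 48.8 ± 27.6, 55.4 ± 9.25, 20.2 ± 8.03 and 38.4 ± 13.5 per kilobase in the same order of groups. In P28 WT papillae these levels placed Scube3 at rank 110 and Scube1 at rank 285 of 18861 genes with a value, and Scube2 at rank 9699. In P20 WT papillae Scube1, at rank 5501 of 18805, stood ahead of Scube3, at rank 6922, and Scube2 was at rank 10340.

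The summed per-kilobase level of the family averaged 2816 ± 1916 in P28 Smo*, 11185 ± 1934 in P28 WT, 604 ± 193 in P20 Smo* and 343 ± 44.9 in P20 WT libraries. From the lowest group to the highest, Scube3 ran P20 WT, P20 Smo*, P28 Smo*, P28 WT, while Scube1 ran P20 Smo*, P20 WT, P28 Smo*, P28 WT. The P28 Smo* and P20 Smo* libraries overlapped for Scube1 and for Scube3, and P28 Smo* and P20 WT overlapped for Scube1, so these neighbours are not separated by their spread. For Scube2, at 54.0 to 321 normalized counts over the 12 libraries, P28 WT and P20 Smo* were the only groups that did not overlap.

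**Figure D1:**
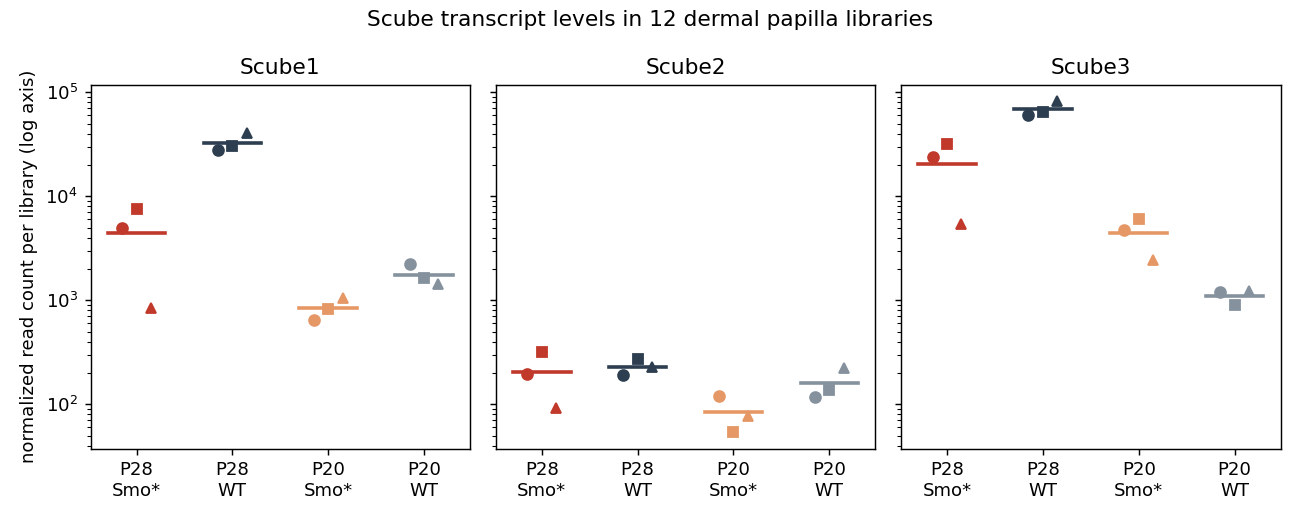
Normalized read count of Scube1, Scube2 and Scube3 in each of 12 libraries, on a log axis, by age and genotype; circles, squares and triangles are replicates 1, 2 and 3 and bars are group means. Scube1 and Scube3 are highest in the 3 P28 WT libraries, P28 Smo* replicate 3 lies lowest of its group for all 3 genes, and Scube3 at P20 is higher in Smo* than in WT.

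At P28, Smo* papillae labelled anagen I-III were compared with WT papillae labelled anagen VI, so genotype and stage cannot be told apart in these differences. Scube1 was lower in Smo* papillae, Scube3 had its 3 Smo* values below all 3 WT values without passing the test, and Scube2 overlapped between the genotypes. Scube1 had 4993, 7549 and 844 normalized counts in P28 Smo* libraries, against 27677, 30147 and 40264 in P28 WT libraries. Every Smo* library lay below every WT library, and Smo* replicate 3 was far below its 2 replicates. The mean was 4462 ± 3384 in Smo* and 32696 ± 6669 in WT papillae, a ratio of 0.136, and the log2 fold change was -3.35 (SE 0.70, 95% interval -4.96 to -1.74, limma adjusted p = 0.0246). Its fall placed Scube1 at rank 126 from the lowest of 14757 genes.

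Scube3, the secreted papilla growth signal, had 23911, 32082 and 5391 normalized counts in P28 Smo* libraries, against 60702, 64718 and 81602 in P28 WT libraries. Its groups did not overlap either, and replicate 3 was again the lowest of the Smo* group. The means were 20461 ± 13676 in Smo* and 69007 ± 11091 in WT papillae, 3.37-fold apart, with a log2 fold change of -2.09 (SE 0.58, 95% interval -3.44 to -0.75) and an adjusted p of 0.0656 by limma. In the authors' deposited table, which gives WT over Smo* and calls 16.8% of 17160 genes, the log2 fold change was 1.48 with an adjusted p of 0.000652 for Scube3, and 2.14 with 1.45e-05 for Scube1. Scube2, the family member best known for Hedgehog release, had 195, 321 and 92.0 normalized counts in P28 Smo* libraries, against 193, 269.6 and 227 in P28 WT libraries. The WT values lay inside the Smo* range, and the log2 fold change of -0.34 (SE 0.42, 95% interval -1.30 to 0.61, adjusted p = 0.635) leaves room for changes in either direction.

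So 1 of the 3 genes was called at P28, where 8.9% of the genes tested were called, 4.05% higher and 4.85% lower in Smo*, and 33.4% had groups that did not overlap. Without Smo* replicate 3 the log2 fold change became -2.39 for Scube1 (adjusted p = 0.000604) and -1.31 for Scube3 (adjusted p = 0.00993), both past the threshold. Without any 1 of the WT libraries the adjusted p of Scube1 was 0.0638 to 0.0930, past the threshold in none of them. The sum of the papilla markers moved with these values, at 178041, 279257 and 36956 in P28 Smo* replicates 1, 2 and 3, against 312908 to 372335 in WT. That is the same order as all 3 Scube genes. Vcan and Wif1 made up most of each Smo* sum. Of the 10 markers only Sox18 ran in another order, at 958, 1704 and 1886 in these replicates, against 361 to 413 in WT. Of the 10 papilla markers, 1 was called higher and 3 lower in Smo*. Adipocyte markers summed to 767, 360.4 and 3798 in these Smo* libraries, against 416 to 475 in WT, and endothelial markers to 3248 to 5473, against 1564 to 3177. None of these markers was at 0 in every library, and their part in the Scube values was not tested.

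At P20, in resting follicles of both genotypes, Scube3 was higher in Smo* papillae, while Scube1 and Scube2 had log2 fold changes below 0 that did not pass the test. Scube3 had 4730.3, 6068 and 2415 normalized counts in P20 Smo* libraries, against 1188, 902 and 1234 in P20 WT libraries. Each Smo* library was above each WT library, with replicate 3 nearest to WT. The means of 4404 ± 1848 in Smo* and 1108 ± 179.9 in WT papillae were 3.97-fold apart, and the log2 fold change was 1.90 (SE 0.31, 95% interval 1.20 to 2.60, limma adjusted p = 0.0408). It ranked 87 from the highest of 14645 genes tested.

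Scube1 had 646, 817 and 1053 normalized counts in P20 Smo* libraries, against 2241, 1639 and 1420 in P20 WT libraries. The groups did not overlap, with means of 839 ± 205 in Smo* and 1767 ± 425 in WT, and the log2 fold change was -1.08 (SE 0.22, 95% interval -1.58 to -0.58, limma adjusted p = 0.0850). Scube2 had 119.8, 54.0 and 77.6 normalized counts in P20 Smo* libraries, against 119, 136 and 224 in P20 WT libraries. Its highest Smo* library overlapped the lowest WT library, and the log2 fold change was -0.94 (SE 0.35, adjusted p = 0.360).

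Calls were rare at P20: 0.696% of genes were called, 0.485% higher and 0.212% lower in Smo*, and 16.4% had groups that did not overlap, and 1 of the 3 Scube genes was called. Scube3 missed the threshold when any library other than Smo* replicate 3 was left out, with adjusted p between 0.0845 and 0.154, and passed without Smo* replicate 3 at 0.00323. In the authors' deposited table, WT over Smo*, where 2.13% of 16041 genes are called, Scube3 had a log2 fold change of -1.50 with an adjusted p of 0.00277, and Scube1 one of 0.62 with 0.736. Papilla marker sums were 45608 to 62625 in P20 Smo* libraries, against 35483 to 41176 in P20 WT libraries. Vcan, the largest part of the sum, averaged 30626 in P20 Smo* and 20664 in P20 WT libraries, while Crabp1 averaged 2034 and 5762. Of the 10 papilla markers, 6 had log2 fold changes above 0 and 4 below 0, with 1 called higher and 0 lower. Keratinocyte sums were 42.0 to 219 in P20 Smo* and 57.7 to 827 in P20 WT libraries, and the part of either list in the Scube values was not tested.

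**Figure D2:**
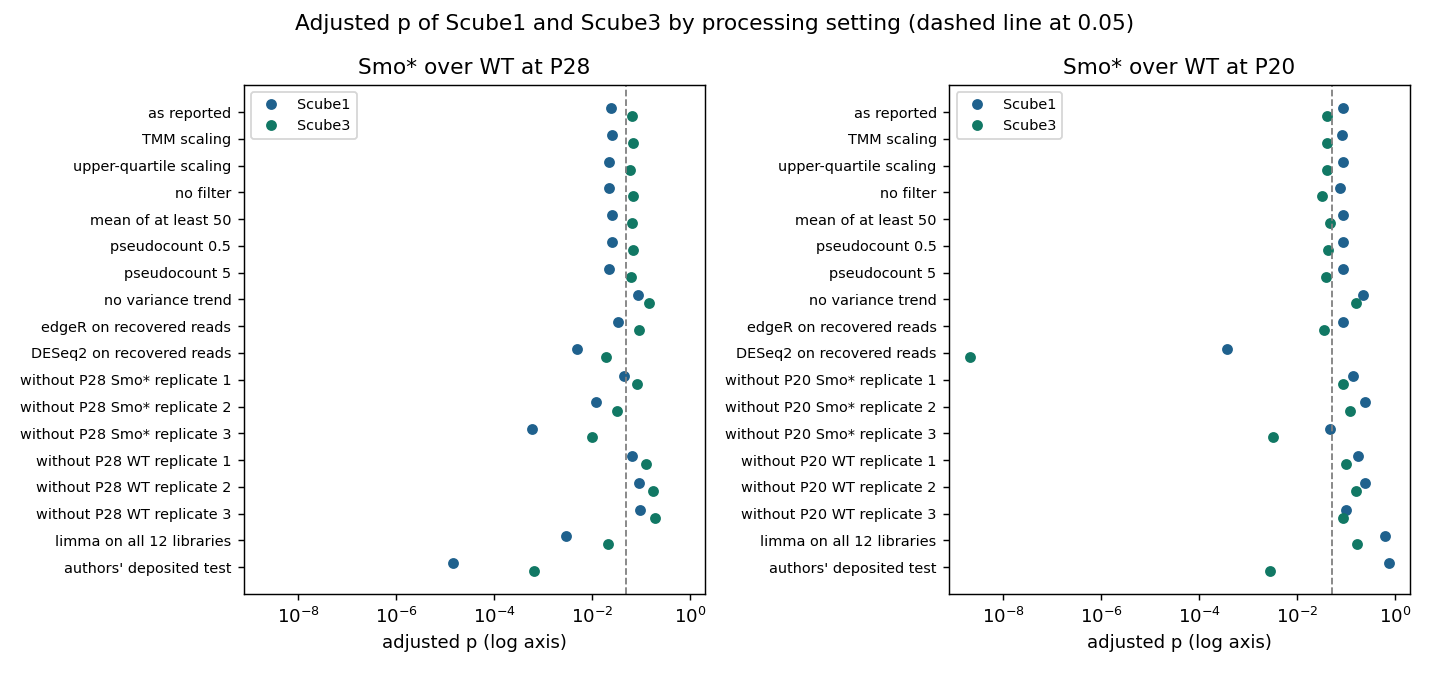
Adjusted p of Scube1 and Scube3 for Smo* over WT, at P28 (left) and P20 (right), on a log axis, with 1 row for each processing setting and a dashed line at 0.05. At P28 Scube1 passes at 0.0246 as reported but not without a WT library or the variance trend, and at P20 Scube3 passes at 0.0408 as reported but not without the trend, on all 12 libraries, or without any library other than Smo* replicate 3.

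The Smo* effect on Scube3 differed between the 2 ages: it was called higher at P20, its log2 fold change at P28 was below 0 without passing the test, and the difference between the effects passed. In 1 limma fit of all 12 libraries the P28 effect minus the P20 effect was -3.99 for Scube3 on the log2 scale (SE 0.74, 95% interval -5.61 to -2.38, adjusted p = 0.0123). In that test 4.72% of 14790 genes were called, 1.89% higher and 2.83% lower, and Scube3 ranked 81 from the lowest. The call held under each of the 9 other settings and without each of the 12 libraries in turn, with values of -4.49 to -3.21 when 1 library was left out. For Scube1 the difference was -2.27 (SE 0.83, adjusted p = 0.137) and for Scube2 it was 0.60 (SE 0.60, adjusted p = 0.599), so a difference between the ages was not shown for these 2 genes. The P28 libraries were also the only ones in which the genotypes carried different stage labels, and age, sex and stage cannot be told apart in this difference.

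**Figure D3:**
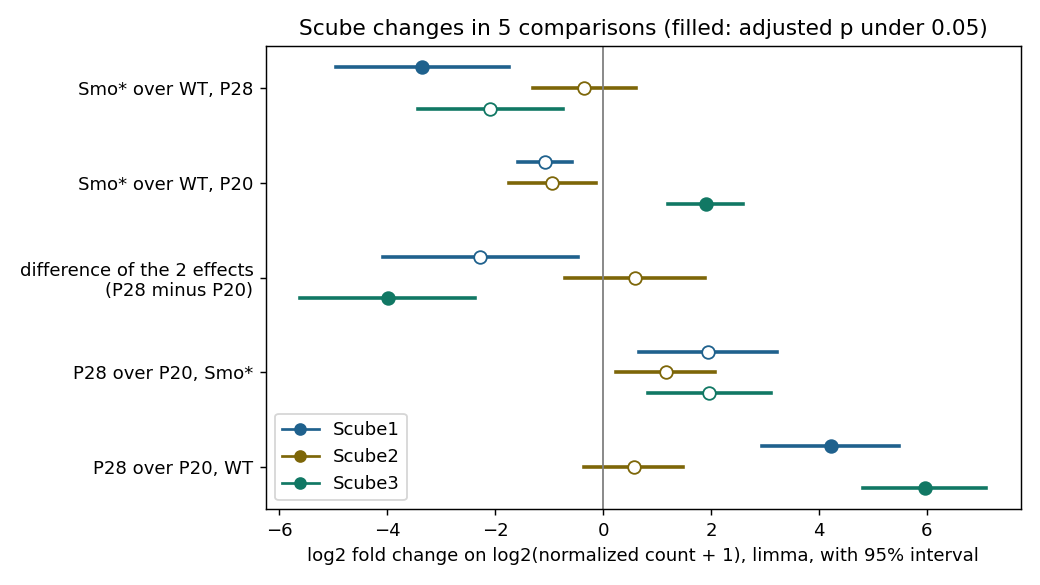
Log2 fold changes of Scube1, Scube2 and Scube3 in 5 comparisons, with limma 95% intervals; filled points have an adjusted p under 0.05. Scube3 lies at -2.09 for Smo* over WT at P28 and at 1.90 at P20, while Scube1 lies below 0 at both ages, and both lie above 4 for P28 over P20 in WT.

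Between telogen and full anagen in wild types, Scube3 and Scube1 were far higher at P28, and Scube2 was not separated. Scube3 averaged 69007 ± 11091 normalized counts in P28 WT and 1108 ± 179.9 in P20 WT papillae, 62.3-fold apart, and its lowest P28 library was above its highest P20 library. On the log2 scale the change was 5.96 (SE 0.53, limma adjusted p = 1.56e-05), rank 31 from the highest of 14790 genes. Scube1 averaged 32696 ± 6669 in P28 WT and 1767 ± 425 in P20 WT papillae, 18.5-fold apart, with a log2 change of 4.22 (SE 0.59, adjusted p = 0.000384) and rank 103. Scube2 averaged 230.0 ± 38.4 in P28 WT and 159.5 ± 56.1 in P20 WT papillae, its groups overlapped, and its log2 change was 0.57 (SE 0.42, adjusted p = 0.361). In this comparison 25.4% of genes were called, 13.5% higher and 11.9% lower at P28, and 45.1% had groups that did not overlap. Of the 10 papilla markers 6 were called higher at P28 and none lower; their part in the Scube rise was not tested.

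In mutants the same comparison, P28 in anagen I-III over P20 in telogen, was not called for any of the 3 genes by limma, where 3.46% of genes were called, 1.98% higher and 1.47% lower at P28, and 24.4% had groups that did not overlap. The log2 change was 1.95 for Scube1 (SE 0.59, adjusted p = 0.0838), 1.16 for Scube2 (SE 0.42, adjusted p = 0.131) and 1.97 for Scube3 (SE 0.53, adjusted p = 0.0585), with overlapping groups for each. P28 Smo* replicate 3 set that overlap for Scube1, at 844 normalized counts, inside the P20 Smo* range of 646 to 1053, and for Scube3, at 5391, below the highest P20 Smo* library at 6068. Without it the changes were 2.90, 1.64 and 2.75 for Scube1, Scube2 and Scube3, with adjusted p of 7e-05, 0.0223 and 0.000376. At an unadjusted p under 0.05 all 3 genes passed, by edgeR on the recovered reads Scube1 and Scube3 did, and by DESeq2 all 3 did. DESeq2 also called more of all genes here, 1615 against 511 by limma. The shares of all genes at an unadjusted p under 0.05 and by edgeR are not given here. This comparison shares its libraries with the genotype comparisons above.

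The make-up of the family within a library does not depend on the scaling between libraries. As a share of the family's summed level per kilobase, Scube3 made up 83.0%, 81.1% and 84.9% in P28 Smo* libraries, against 70.6%, 70.0% and 69.0% in P28 WT libraries. Replicate 3 of P28 Smo*, low in each gene, thus had a share close to its replicates. In P20 Smo* libraries the Scube3 share was 85.0%, 87.7% and 68.5%, against 34.4%, 33.8% and 41.3% in P20 WT libraries, again with no overlap. The differences, Smo* minus WT, were 13.2 percentage points at P28 and 43.9 at P20, each with an exact two-sided permutation p of 0.1, the smallest that 3 against 3 allows. Scube1 made up 14.9% ± 2.67 in P28 Smo* and 29.6% ± 0.871 in P28 WT papillae, and 16.0% ± 9.43 in P20 Smo* and 52.1% ± 8.25 in P20 WT papillae.

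Scube3 thus led Scube1 per length in every library except those of P20 WT. The per-length ratio of Scube3 to Scube1 was 4.72 to 7.10 in P28 Smo*, 2.25 to 2.44 in P28 WT, 2.55 to 8.25 in P20 Smo* and 0.589 to 0.966 in P20 WT libraries. Although the Scube3 values were lower in Smo* than in WT libraries at P28, its ratio to Scube1 was higher in every Smo* library than in any WT library at both ages. Scube2 made up 2.08% of the family in P28 Smo*, 0.503% in P28 WT, 3.64% in P20 Smo* and 11.4% in P20 WT papillae on average. These shares rest on the union of exons, and lengths of single transcripts move the P28 difference to 15.5 or 16.4 points.

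**Figure D4:**
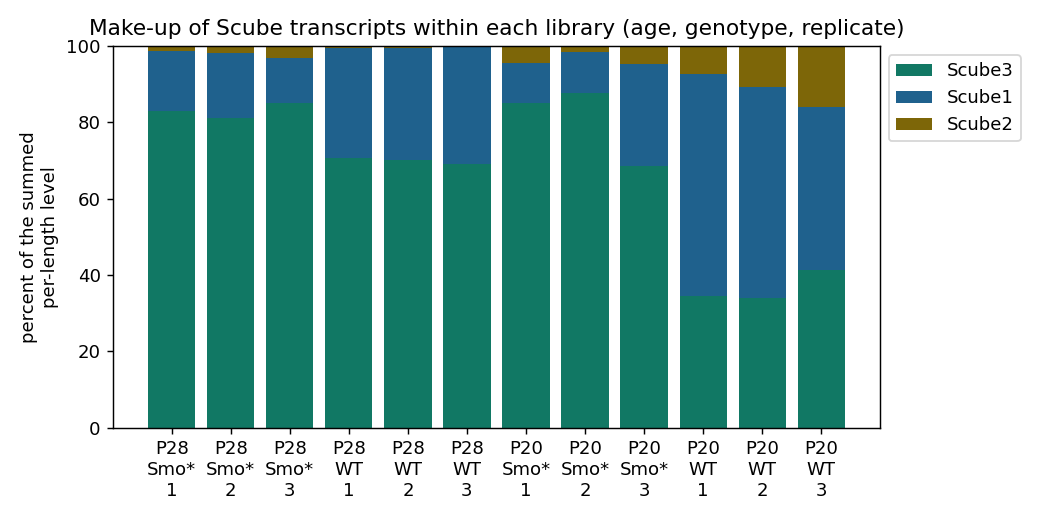
Make-up of the family in each library, as percent of the summed normalized count per kilobase of exon, with Scube3 at the bottom, Scube1 in the middle and Scube2 on top. Scube3 takes 81.1% to 84.9% in P28 Smo* and 69.0% to 70.6% in P28 WT libraries, and the 3 P20 WT libraries are the only ones in which Scube1 exceeds Scube3.

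The genes nearest in pattern to each member were ranked by the root mean square difference, over the 12 libraries, of log2 values centred on each gene's own mean, among 11024 genes with a mean of at least 100. For Scube3 the nearest 5 were Ptprz1, a receptor tyrosine phosphatase, at a distance of 0.40, Frzb, a secreted Wnt antagonist, at 0.51, Dcc, a netrin receptor, at 0.54, Scn4b, a sodium channel subunit, at 0.61, and Pax1, a transcription factor, at 0.72. Ptprz1 averaged 4793 normalized counts in P28 Smo*, 17122 in P28 WT, 611 in P20 Smo* and 188 in P20 WT libraries, the same order of groups as Scube3. Frzb followed that order too, at 2029, 6439, 639.6 and 237. For each member, the genes were picked for likeness over these same libraries, so a shared order of groups follows largely from the choice.

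For Scube1 the nearest 5 were Shisa9 at 0.49, Rspo3, which strengthens Wnt signals, at 0.49, Steap2, a metal reductase, at 0.50, Ednrb, an endothelin receptor, at 0.50, and Tcl1 at 0.55. Rspo3 averaged 4023 normalized counts in P28 Smo*, 15097 in P28 WT, 601 in P20 Smo* and 959 in P20 WT libraries, with P20 Smo* lowest, as in Scube1. Ednrb averaged 1332, 11895, 464 and 759.97 in the same groups. The genes nearest to Scube2 lay at 0.37 to 0.41: Id3, a target of BMP signals, Cpe, a carboxypeptidase, Sparcl1, a matrix protein, Ncoa3, a nuclear receptor coactivator, and Nipal3. The members themselves were farther apart, at 1.30 for Scube1 and Scube3, 1.64 for Scube1 and Scube2 and 2.01 for Scube2 and Scube3, where the median gene lay 2.13 from Scube1, 0.79 from Scube2 and 2.33 from Scube3. The 12 libraries fall in 4 groups, so these distances mostly compare group means.

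**Figure D5:**
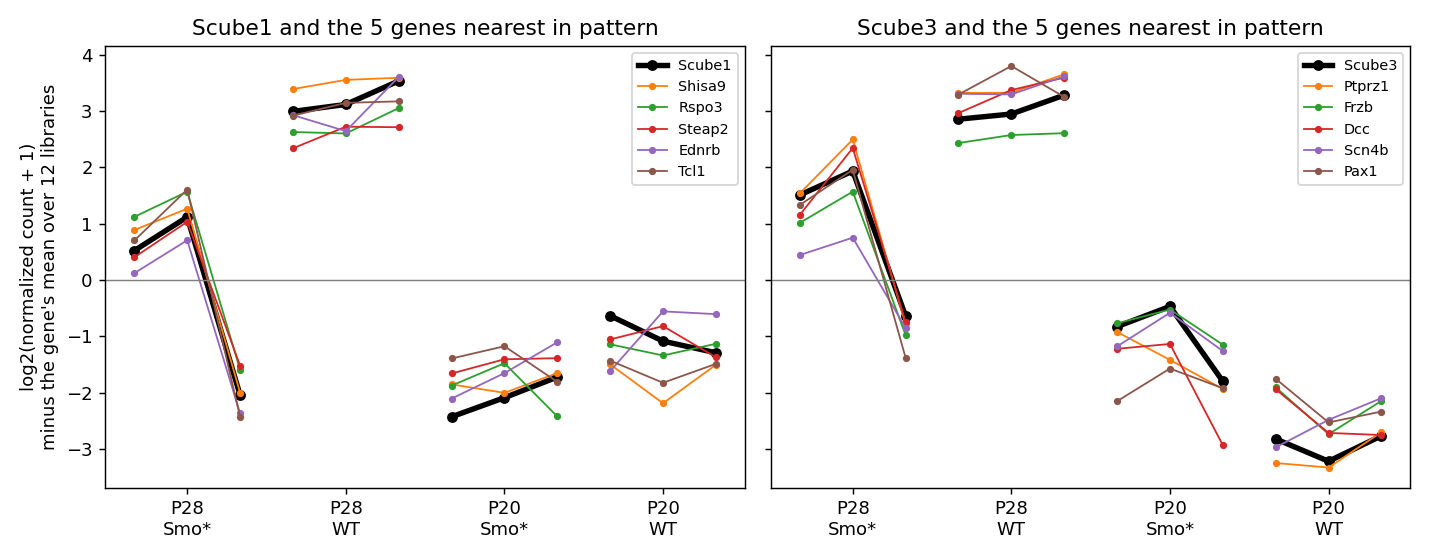
Log2(normalized count + 1) minus each gene's own mean over 12 libraries, for Scube1 (left) and Scube3 (right, both black) and the 5 genes nearest to each in pattern; lines only link the libraries of a group. All 12 genes are highest in P28 WT and lowest of the P28 libraries in Smo* replicate 3, and at P20 Scube3 is higher in Smo* than in WT.

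On the ligand side of the pathway, the papilla libraries held almost no Hedgehog ligand transcript. Shh was at 0 to 3.1 normalized counts, Ihh at 0 to 6.8 and Dhh at 0 to 20.3 over the 12 libraries, and Disp2 at 0.9 to 14.3. Disp1, the Dispatched protein that passes Hedgehog to SCUBE proteins, was present, averaging 1200 ± 241 in P28 Smo* and 707 ± 149 in P28 WT libraries (log2 fold change 0.76, adjusted p = 0.0502), and 999.8 ± 70.5 in P20 Smo* and 1145 ± 213 in P20 WT libraries. Of the 4 tested genes of the ligand and release list, limma called 0 at either age, beside 8.9% of all genes at P28 and 0.696% at P20. At P28, 1 passed an unadjusted p under 0.05 and edgeR, DESeq2 and the authors' deposited table each called 1. At P20 all of these counts were 0. The authors' deposited tables call 16.8% of all genes at P28 and 2.13% at P20. With 4 genes tested, these counts do not set the list apart from all genes. In wild types Disp1 was lower at P28 than at P20, at -0.70 on the log2 scale (adjusted p = 0.0164), and the protease Adam10 higher, at 0.37 (adjusted p = 0.0133).

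On the receiving side, 4 of 13 tested genes were higher and 1 lower in Smo* at P28, and 4 were higher and none lower at P20, where 8.9% of all genes tested were called at P28 and 0.696% at P20. The number higher was 2 at P28 without WT replicate 2 or without WT replicate 3, and at P20 leaving out Smo* replicate 2 gave 2 and leaving out WT replicate 2 gave 1. The receptor Ptch1 rose by 1.51 on the log2 scale at P28 (adjusted p = 0.0152) and by 2.87 at P20 (0.0179). Gpc3, a glypican that binds Hedgehog, rose by 1.53 at P28 (0.00102) and by 0.95 at P20 (0.0150), while Gpc6 was lower at P28, at -1.69 (0.000174). Hhip, the secreted antagonist that binds Hedgehog outside the cell, had 33486, 49363 and 8915 normalized counts in P28 Smo* libraries, against 36605, 42639 and 42843 in P28 WT libraries. At P20 it had 14815, 13620 and 13606 in Smo*, against 1528, 1039 and 1121 in WT. Hhip was thus called higher at P20 (3.53, adjusted p = 9.28e-05) with overlapping groups at P28, and its difference between the ages was -4.26 (adjusted p = 0.00359), the same sign as that of Scube3. In wild types Hhip was higher at P28 by 5.06 and Scube3 by 5.96, in a comparison that shares its WT libraries with the difference between the ages.

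Inside the cell, 1 of 14 transduction genes was higher and 1 lower at P28, Gli1 at 1.52 (adjusted p = 0.000237) and the repressor Gli3 at -0.63 (0.0332), and Gli1 was the 1 called at P20, at 1.63 (0.0449). Of 14 Hedgehog target genes, 8 were higher and none lower at P28, with a median log2 fold change of 1.69, and 6 were higher and none lower at P20, with a median of 1.01. Of all genes tested 4.05% were called higher at P28 and 0.485% at P20, and their median was -0.01 at P28 and 0.00 at P20. The counts of target genes rested on single libraries: at P28, 5 were higher without WT replicate 2 and 4 without WT replicate 3. At P20 between 1 and 5 were higher with any 1 library left out, with 3 without replicate 1 of Smo* or of WT and 1 without replicate 2 of either. The forkhead genes Foxd1 and Foxd2, known to respond to Hedgehog in mesenchyme, rose by 3.12 (adjusted p = 0.00014) and 2.73 (0.00153) at P28, and Foxd2 by 2.72 (0.0222) at P20. Beside these, the log2 fold change of Scube1 was -3.35 at P28 (limma adjusted p = 0.0246) and -1.08 at P20 (0.0850). That of Scube3 was -2.09 at P28 (0.0656) and 1.90 at P20 (0.0408). Genotype and stage differ together at P28, and a response of the Scube genes to Hedgehog was not tested.

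Among 16 TGF-beta, BMP and VEGF partners, limma called 2 lower and none higher at P28, where it called 8.9% of all genes. These were Bmp2 at -1.69 (adjusted p = 0.00291) and Tgfb1 at -0.63 (0.0241). The number lower by limma was 1 without Smo* replicate 1 or without any 1 of the WT libraries. The other tests called more of the 16 at P28: 3 by edgeR, 6 by DESeq2 and 6 in the authors' deposited table, with 6 at an unadjusted p under 0.05. Of all genes at P28, limma called 1313, edgeR 1336 and DESeq2 2296, and the authors' table calls 16.8%. At P20, where limma called 0.696% of all genes tested, limma and edgeR called 0 of 16. There 6 passed an unadjusted p under 0.05, and DESeq2 and the authors' deposited table each called 2. Of all genes at P20, DESeq2 called 480 and the authors' table calls 2.13%. The TGF-beta receptor Tgfbr2, through which Scube3 is known to act, averaged 20161 ± 1428 normalized counts in P28 Smo* and 17210.5 ± 6599 in P28 WT libraries (log2 fold change 0.30, adjusted p = 0.501). Kdr, the VEGF receptor that Scube2 assists in endothelial cells, averaged 560.0 ± 159 in P28 Smo* and 546 ± 202 in P28 WT libraries, and 972 ± 146 in P20 Smo* and 501 ± 78.7 in P20 WT libraries (log2 fold change 0.95 at P20, adjusted p = 0.0517).

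Of 27 tested secreted proteins with EGF-like or CUB domains, the kin of the family by domain, 4 were higher and 2 lower at P28, with a median of 0.20, where 8.9% of all genes were called. Without Smo* replicate 1, WT replicate 2 or WT replicate 3, 2 were higher, and without Smo* replicate 1 or any 1 of the WT libraries, 1 was lower. Edil3, a matrix protein that binds integrins, fell by 2.66 on the log2 scale (adjusted p = 0.000106), and Egfl6, a matrix protein, rose by 2.75 (0.00961), Ltbp4, which holds latent TGF-beta, by 1.71 (0.00304) and the growth factor Pdgfc by 0.93 (0.0224). At P20 limma and edgeR called 0 of 27, with 10 at an unadjusted p under 0.05, 3 by DESeq2 and 2 in the authors' deposited table. Of all genes at P20, limma called 0.696%, edgeR called 93 and DESeq2 480, and the authors' table calls 2.13%. The share of all genes at an unadjusted p under 0.05 was not counted, so the 10 cannot be set against it. In the test of the difference between the ages, 5 of 27 were called higher, among them Ltbp4 at 1.67 and Egfl6 at 3.32, and none lower, where 4.72% of all genes were called, and the number higher ran from 2 to 6 with 1 library left out.

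Of 14 papilla growth signals, 2 were higher and 5 lower in Smo* at P28, with a median log2 fold change of -1.88, where 4.05% of all genes were called higher and 4.85% lower. Without Smo* replicate 3, 8 were lower, and the number higher was 0 without Smo* replicate 1 or 2 or WT replicate 1 or 2, and 1 without WT replicate 3. Rspo4 and Rspo1, secreted enhancers of Wnt signalling, were lower, at -5.54 (adjusted p = 0.000803) and -1.59 (0.00689), as were Inhba, a subunit of activin, at -3.39 (0.00219) and the BMP antagonist Nog at -2.75 (0.00409). At P20 limma and edgeR called 0 of 14, with 6 at an unadjusted p under 0.05, 3 by DESeq2 and 0 in the authors' deposited table, and the median was 0.04. Of all genes at P20, limma called 0.696%, edgeR called 93 and DESeq2 480, and the authors' table calls 2.13%. The share of all genes at an unadjusted p under 0.05 was not counted. In the difference between the ages 4 of 14 were called lower and none higher, Rspo4 at -4.93, Inhba at -4.03, Nog at -3.00 and Rspo1 at -1.67. In that test 2.83% of all genes were called lower and 1.89% higher. In wild types 8 of 14 were higher and 2 lower at P28 than at P20, where 25.4% of all genes were called, with a median of 2.53, against 4.22 for Scube1 and 5.96 for Scube3. None of these lists is independent evidence, since they were drawn up with earlier results of these data known.

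Counts of called neighbours within 250 kb of each gene stand beside 8.9% of all genes called at P28, 0.696% at P20 and 25.4% between the wild-type stages, and do not set the neighbours apart. Near Scube3, 12 of 24 annotated genes had a value and were tested, and limma called 0 of 12 at P28, where 1 passed an unadjusted p under 0.05 and edgeR, DESeq2 and the authors' deposited table called 0, and 0 of 12 at P20, where all of these counts were 0. The closest tested neighbour, Zfp523, 2275 bases away, averaged 622 in P28 Smo*, 679 in P28 WT, 561 in P20 Smo* and 475 in P20 WT libraries. Between wild-type stages Tulp1 was called higher at P28, at 1.50 (adjusted p = 0.0246), and Fkbp5, a glucocorticoid-induced gene, lower, at -2.64 (0.000978). Near Scube1, 1 of 8 tested neighbours was called at P28, Efcab6, 141691 bases away, higher in Smo* at 3.38 (adjusted p = 0.0443), with means of 77.1 in P28 Smo* and 4.61 in P28 WT libraries, opposite in sign to Scube1. The adjacent Ttll12, 9842 bases away, had a log2 fold change of 0.03 (adjusted p = 0.941). Near Scube2, limma called 0 of 10 tested neighbours at P28, with 2 at an unadjusted p under 0.05, 0 by edgeR and DESeq2 and 1 in the authors' deposited table.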

How the data were processed

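RNA of 12 libraries was made into strand-marking libraries after ribosomal RNA had been removed from 100 ng of total RNA, per the labels' protocols. As named per the submitters' processing notes, with no role for each, the builds were mm10 and GRCm38.p4 and the tools DESeq2, HTSeq, TopHat2 (version 2) and Trimmomatic. The authors deposited 1 table per age with a normalized count (unit: signal) for 25887 genes in 6 libraries, normalized over all 12 libraries together, as the deposited mean shows. Whole reads were recovered for 100% of values, within 0.01 reads. The deposited tables also hold the authors' log2 fold change (WT over Smo*) with its log2 SE, the test statistic (a score) and the raw and adjusted p-value. GENCODE M21 named 98.7% of identifiers, and 0 value columns were left unused.

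The main test was limma (version 3.58.1, R 4.3.3) on log2(value + 1) with a variance trend, Benjamini-Hochberg adjusted at 0.05 over all genes with a mean of at least 10, on the 6 libraries of an age, or on all 12 for comparisons across ages. Fold changes on this scale understate those of low genes. Alternatives were edgeR 4.0.16 and DESeq2 1.42.0 on the recovered reads, other scalings, filters and pseudocounts (0.5 and 5), no variance trend and leaving out each library. Replicates are numbered in accession order and form no pairs. Lists of Hedgehog ligands and release, reception, transduction and target genes, TGF-beta, BMP and VEGF partners, secreted EGF and CUB proteins, papilla growth signals and cell type markers were used. Genes named are the members, up to 4 called genes of each list by adjusted p, genotype checks, the 5 nearest genes in pattern and neighbours within 250 kb; Disp1, Tgfbr2 and Kdr, chosen after their values were seen, were added for their roles. A gene that this rule names is not reported here. The members and lists were chosen with earlier results of these data known. Each library held at least 36323058 reads on genes. In its lowest library Scube2 had 62 reads (exact Poisson 95% interval 47.5 to 79.5, for counting error only), against 625 for Scube1 and 867 for Scube3.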

Additional observations from a re-analysis of the deposited data

Results flagged for a closer look

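Scube3 differed between the ages in its response to Smo*, tested by the interaction term of 1 limma fit of all 12 libraries. The P28 effect minus the P20 effect was -3.99 on the log2 scale (adjusted p = 0.0123). The 3 P28 Smo* libraries had 5391 to 32082 normalized counts, all below the 60702 to 81602 of P28 WT libraries, while the 3 P20 Smo* libraries had 2415 to 6068, all above the 902 to 1234 of P20 WT libraries. In the P28 Smo* group the papilla marker sum ran from 36956 to 279257 and in P28 WT from 312908 to 372335, and at P20 from 45608 to 62625 in Smo* and from 35483 to 41176 in WT. The single markers were mixed: of 10, the log2 fold change was above 0 for 2 and below 0 for 8 at P28. At P20 it was above 0 for 6 and below 0 for 4. The part of papilla content in this difference was not tested. Genotype and hair cycle stage differ together at P28, and these cannot be told apart.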

How the results depend on the processing

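No paired analysis was possible because the labels give no shared replicate numbers; each sample's title carries a number of its own, whose meaning is not stated and which was not used to pair samples. Scube1 at P28 (-3.35) lost its call without the variance trend, at the same -3.35 (adjusted p = 0.0849), and ran from -3.97 to -2.39 with 1 library left out, its adjusted p passing the threshold only when a Smo* library was the one left out. Scube3 at P28 (-2.09) passed with DESeq2 at -1.75, on all 12 libraries at -2.09 and in the authors' test at -1.48 (signs turned to Smo* over WT), and ran from -2.59 to -1.31 with 1 library left out, passing without Smo* replicate 2 or 3. Scube2 at P28, not called, changed sign without Smo* replicate 3, to 0.13, in a range of -0.76 to 0.13. At P20, Scube1 passed with DESeq2 at -1.08 and without Smo* replicate 3 at -1.25, in a range of -1.25 to -0.89. Scube3 at P20 lost its call without the variance trend and on all 12 libraries, at 1.90 in both, and ran from 1.62 to 2.29 with 1 library left out. The Scube1 difference between ages ran from -2.90 to -1.32, past the threshold only without P28 Smo* replicate 2. For P28 over P20 in Smo*, Scube1 passed with edgeR at 2.40 and DESeq2 at 2.41 and ran from 1.32 to 2.90 with 1 library left out, Scube2 passed with DESeq2 at 1.28 and ran from 0.75 to 1.64, and Scube3 passed with edgeR at 2.20 and DESeq2 at 2.21 and ran from 1.47 to 2.75. The Scube3 share difference at P28 was 15.5 points with the longest and 16.4 with the shortest coding transcript. The calls of Scube3 in the difference between ages and of Scube1 and Scube3 between wild-type stages held in every alternative run. Genes called at P28 numbered 1313, against 638 without the trend, 2296 with DESeq2, 2058 on all 12 libraries, 2880 in the authors' test and 461 to 1619 with 1 library left out. At P20 they numbered 102, against 9, 480 and 342 without the trend, with DESeq2 and in the authors' test, and 8 to 129. In the difference between ages they numbered 698, against 384 without the trend, 1482 with DESeq2 and 254 to 922. In Smo* between ages they numbered 511, against 225, 1615 and 49 to 1049, and in WT 3761, against 2336 to 4423. Of the counts of list members and genes, 80 moved by over 1.5 times and 655 did not under other settings, and 147 did and 573 did not with 1 library left out. The cause of these shifts was not tested. With 3 libraries in a group, 1 library can decide a call. Leaving out P28 Smo* replicate 2 or 3 brought Scube3 at P28 past the threshold, and leaving out any 1 P28 WT library took Scube1 at P28 out of it.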

Other observations

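Partners of the family also differed between the wild-type stages. Of 13 tested Hedgehog reception genes, 5 were higher and 4 lower in P28 WT than in P20 WT papillae by limma, where 25.4% of all genes were called, 13.5% higher and 11.9% lower, and 3 were higher without P28 WT replicate 1. The glypican Gpc5 averaged 22.6 ± 4.81 normalized counts in P28 WT and 905 ± 406 in P20 WT libraries (log2 change -5.19, adjusted p = 4.04e-06), and Gpc6 changed by 1.13 (adjusted p = 7.42e-05). In mutants Gpc5 was lower at P28 as well, at -3.92 (adjusted p = 0.00037), while Gpc3 was higher, at 1.03 (adjusted p = 0.00189). Of the 16 TGF-beta, BMP and VEGF partners, Bmp7 and Bmp4 were lower at P28 in both genotypes, at -0.99 and -1.09 in Smo* and at -1.25 and -0.99 in WT papillae. Among the EGF and CUB proteins, 6 of 27 were higher and 8 lower in P28 WT than in P20 WT papillae, again beside 25.4% of all genes, and 5 were lower without P28 WT replicate 3, P20 WT replicate 2 or P20 WT replicate 3, with Edil3 at 3.35 (adjusted p = 6.46e-05) and Pdgfc at -2.49 (adjusted p = 2.98e-05).

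Markers of cells other than the papilla were measured in the same libraries. At P28, 2 of 7 endothelial markers were called higher in Smo*, 1 of 5 dermal sheath and smooth muscle markers higher and 1 lower, 1 of 5 fibroblast markers lower, and 1 of 2 tested matrix and inner root sheath markers lower. Of all genes tested at P28, 8.9% were called, 4.05% higher and 4.85% lower in Smo*. The counts in these short lists were not tested against that share. Dermal sheath and smooth muscle markers summed to 11897 to 15796 normalized counts in P28 Smo* and 14120 to 17489 in P28 WT libraries, and to 5003 to 9615 in P20 Smo* and 5147 to 14834 in P20 WT libraries. Limma called 0 of the tested keratinocyte, immune, melanocyte, Schwann and adipocyte markers at P28, where 1, 2, 0, 1 and 2 of them had an unadjusted p under 0.05, edgeR called 0 of each and DESeq2 called 0, 0, 0, 1 and 1. Immune sums reached 516 normalized counts, melanocyte sums 228 and Schwann sums 206 over the 12 libraries.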
